A study of Rattus norvegicus with 20 samples.

Results

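The opioid receptor genes Oprm1 (mu), Oprd1 (delta), Oprk1 (kappa) and Oprl1 (nociceptin), together with Penk, which encodes the enkephalin precursor, were followed in RNA-seq libraries of rat dorsal root ganglia (DRG). The genes were chosen by symbol, as 5 of the 39747 genes in the count table, and each matched 1 row. The table lists them under the gene IDs 25601 (Oprm1), 24613 (Oprd1), 29335 (Oprk1), 29256 (Oprl1) and 29237 (Penk). The animals were female Sprague-Dawley rats of wild-type genotype that ate a soy oil diet (SOD) or a fish oil diet (FOD) for 4 weeks before surgery. Surgery was either chronic constriction injury (CCI), with 4 loose ligatures on the left sciatic nerve, or a sham operation (CT) in which the nerve was only exposed, and 1 week of recovery followed. The left DRG of 14 rats gave 4 SOD-CT and 4 FOD-CCI libraries and 3 each of SOD-CCI and FOD-CT, and the uninjured right DRG of 6 of the CCI rats gave 3 SOD and 3 FOD contralateral libraries, 20 libraries in all. Bulk RNA was poly-T selected, so every value is an average over sensory neurons, glia and other cells of the ganglion.

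Opioid receptors are G protein-coupled receptors of the inhibitory class. Bound by their peptides, they lower cyclic AMP, close voltage-gated calcium channels and open inwardly rectifying potassium channels, which lowers the excitability of sensory neurons and their release of transmitter. In the DRG the mu receptor is best known from peptidergic nociceptors and is the main target of morphine, the delta receptor prefers enkephalins, the kappa receptor prefers dynorphins, and the nociceptin receptor is related in sequence but binds nociceptin rather than the classical opioid peptides. Penk is cleaved to enkephalins, and besides immune and glial cells it is expressed by interneurons of the spinal cord dorsal horn.

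Total counts ran from 22547190 to 54437581 per library. The libraries FOD-CT replicate 1, FOD-CCI replicate 1 and the FOD contralateral replicate 1 carried transcripts of spinal cord: the mean of 7 central glia markers was 7.56 to 8.13 on the log2 scale of counts-per-million values (CPM), against −3.32 to 1.91 in the other 17 libraries. The FOD contralateral replicate 1 was also poor in nociceptor markers (mean of 8 genes −0.51 log2 CPM, 3 of them at 0), where the 17 libraries lay between 6.55 and 7.86. In SOD-CT replicate 1, skeletal muscle genes took 8.90% of the counts, and its neuronal marker mean (7.40 log2 CPM) was the lowest of the 17. These muscle genes also took 1.87% in FOD-CT replicate 2, 0.734% in the FOD contralateral replicate 3 and 0.473% in SOD-CT replicate 4. Every other library had 0.165% or less. The part of muscle transcripts in the opioid gene values was not tested. A list of 9 nerve injury genes averaged 6.35 to 6.87 log2 CPM in SOD-CCI and 1.10 to 4.84 in SOD-CT. It averaged 2.42 to 4.88 in FOD-CT. In FOD-CCI, replicate 1 was at 2.25, below every FOD-CT library, and the other replicates were at 5.46 to 7.45. The FOD injury comparisons below include replicate 1 unless stated.

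Among the receptors, Oprl1 had the highest level in every library. On the length-scaled FPKM values that were deposited, its median over 20 libraries was 11.4 (range 5.09 to 16.4). Oprk1 followed with a median of 2.05 FPKM (0.880 to 4.17), then Oprd1 with 0.988 (0 to 3.23) and Oprm1 with 0.731 (0 to 2.39). Oprk1 exceeded Oprm1 in 17 of 20 libraries and Oprd1 in 14 of 20. The last neighbours in this order were not separated, since Oprd1 was above Oprm1 in 10 libraries and below it in 9. The place of Oprd1 depends on its short deposited gene length, 1162 bases, against 3773 for Oprm1 and 4740 for Oprk1. In CPM, which is not scaled by length, the median was 1.11 for Oprd1 and 2.84 for Oprm1. Penk had a median of 4.56 FPKM, above Oprk1 in 18 libraries and below Oprl1 in 17.

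**Figure D1:**
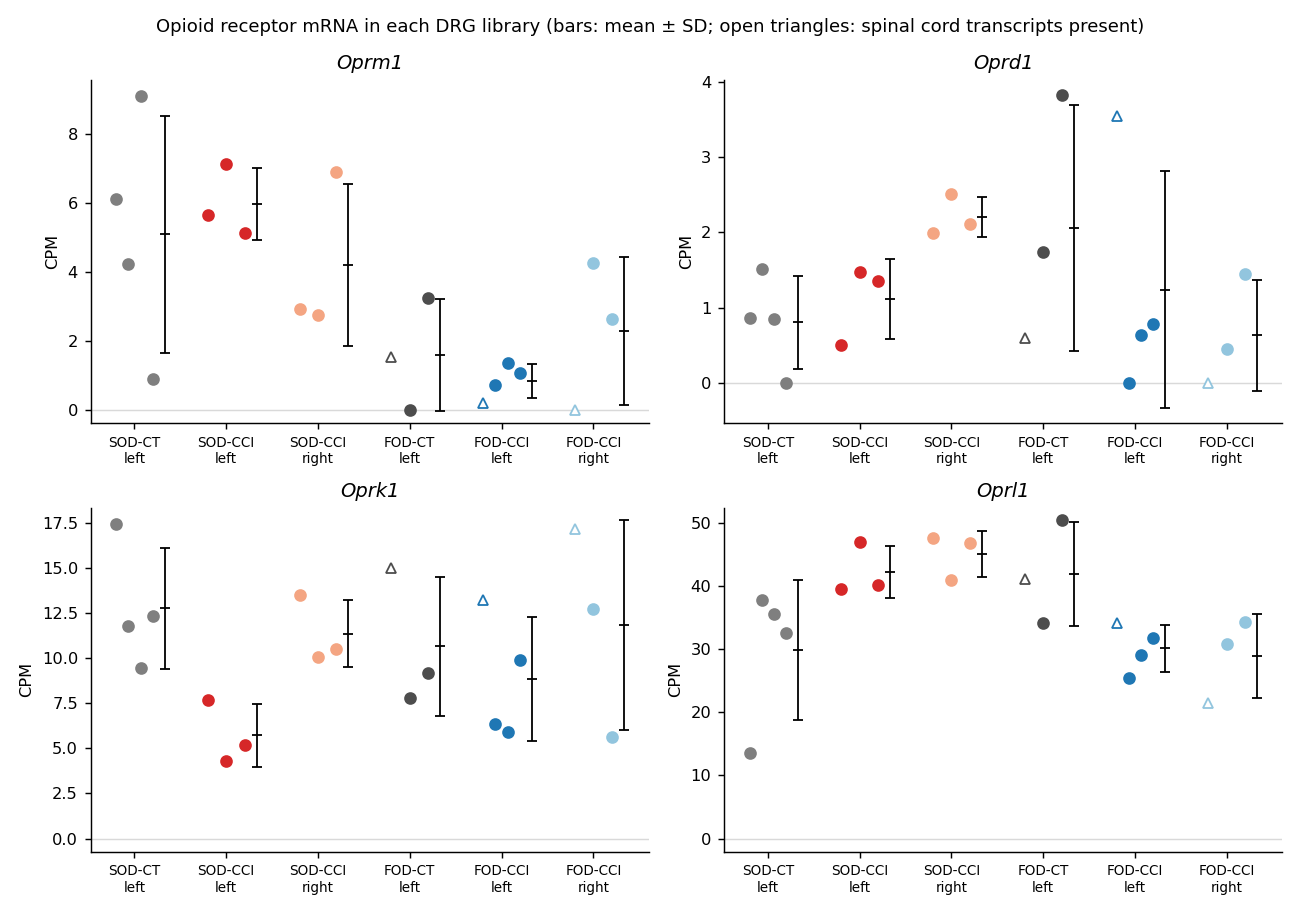
CPM (linear axes) of the 4 opioid receptor genes in each of the 20 DRG libraries, grouped by diet, surgery and side, with a point for each library, open triangles for the 3 libraries that carry spinal cord transcripts, and black bars for the group mean ± SD. Oprl1 lies between 13.6 and 50.5 CPM throughout, Oprk1 between 4.27 and 17.4, and Oprm1 and Oprd1 reach 0 in single libraries.

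No opioid gene passed the test in any comparison. Counts of the 14 left libraries were fitted with edgeR's quasi-likelihood model. A call required an adjusted p (Benjamini-Hochberg, over all genes of the fit) no larger than 0.1 and a 1.2-fold difference or more. Oprk1, Oprl1 and Penk passed the filter on low counts, which asks for 10 counts or more in 13 of the 14 libraries. Oprm1 and Oprd1 reached 10 counts in 12 libraries each, so they were tested in the same model without the filter. Called were 0 of 5 genes in SOD-CCI versus SOD-CT, FOD-CCI versus FOD-CT, FOD-CCI versus SOD-CCI, FOD-CT versus SOD-CT and the diet by injury interaction, and the background was 0 of 14484 filtered genes (0%) and 0 of 28168 genes with at least 1 count (0%) in each. The numbers with an unadjusted p under 0.05 were 1, 0, 1, 1 and 1 of 5 in that order. The shares of all filtered genes at that p were 13.8%, 4.52%, 5.4%, 3.39% and 5.01%, and those of the genes with at least 1 count, which apply to Oprm1 and Oprd1, were 8.85%, 4.32%, 3.74%, 3.58% and 5.64%. DESeq2 gave Penk no p in these 5 comparisons, and in the interaction it gave Oprk1 and Oprl1 no adjusted p. In the SOD injury comparison it called 1 of the 4 genes with an adjusted p (Oprk1), among 594 genes in all (4.17%). In the next 3 comparisons it called 0 of 4, and in the interaction 0 of 2, where the shares of all genes called were 0.147%, 0.014%, 0% and 0.295%. Fewer cells that express a gene and less RNA per cell cannot be told apart in these bulk samples.

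**Figure D2:**
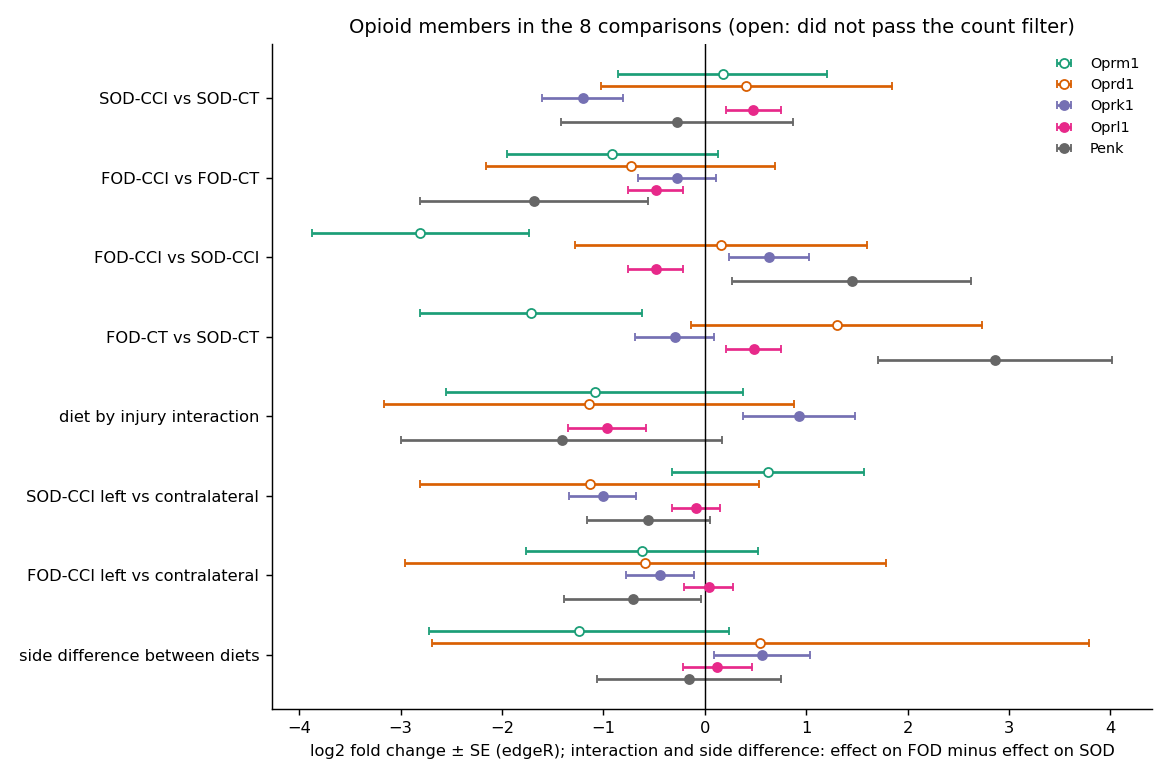
Log2 fold changes of the 5 genes (points, open where the gene did not pass the count filter) with their standard errors (bars) in each of the 8 comparisons, from the edgeR fits of counts. The 2 largest in size are Penk at 2.86 in FOD-CT versus SOD-CT and Oprm1 at −2.81 in FOD-CCI versus SOD-CCI, and no point has an adjusted p under 0.1.

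Penk stood out in the 3 libraries with spinal cord transcripts. It measured 144 CPM in FOD-CT replicate 1, 54.1 in FOD-CCI replicate 1 and 159 in the FOD contralateral replicate 1, from 5020, 1467 and 3787 counts. The other 17 libraries lay between 1.74 and 13.2 CPM with a median of 5.84, from 46 to 426 counts, so the ranges did not overlap. A list of 5 inhibitory interneuron markers of the spinal cord summed to 534 to 638 CPM in the same 3 libraries and to 0 to 5.50 in the 17. This list was picked as spinal cord markers, and its part in the Penk values was not tested.

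Outside these libraries the Penk groups overlapped. SOD-CT measured 5.42, 8.86, 9.52 and 4.57 CPM, and SOD-CCI 7.89, 5.84 and 4.24. The other FOD-CT libraries gave 5.35 and 7.21, and the other FOD-CCI libraries 6.12, 2.89 and 2.15. The lowest of these values lay in FOD-CCI and the highest in SOD-CT, and each pair of groups shared part of its range. With all libraries, Penk was higher in FOD-CT than in SOD-CT (log2FC 2.86, SE 1.16, unadjusted p = 0.0270, adjusted p = 0.965 by edgeR), and 1.77% of filtered genes were higher there at an unadjusted p under 0.05. Without FOD-CT replicate 1 the same difference was −0.19. The diet difference after injury, FOD-CCI minus SOD-CCI, was 1.45 with all libraries (SE 1.18, adjusted p = 0.865) and −0.69 without FOD-CCI replicate 1. FOD-CCI against FOD-CT was −1.69 (SE 1.12, adjusted p = 1.00), 1.37 without FOD-CT replicate 1, −3.83 without FOD-CCI replicate 1 and −0.77 without both. The SOD injury comparison, which uses neither library, gave −0.27 (SE 1.14, adjusted p = 0.931).

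**Figure D3:**
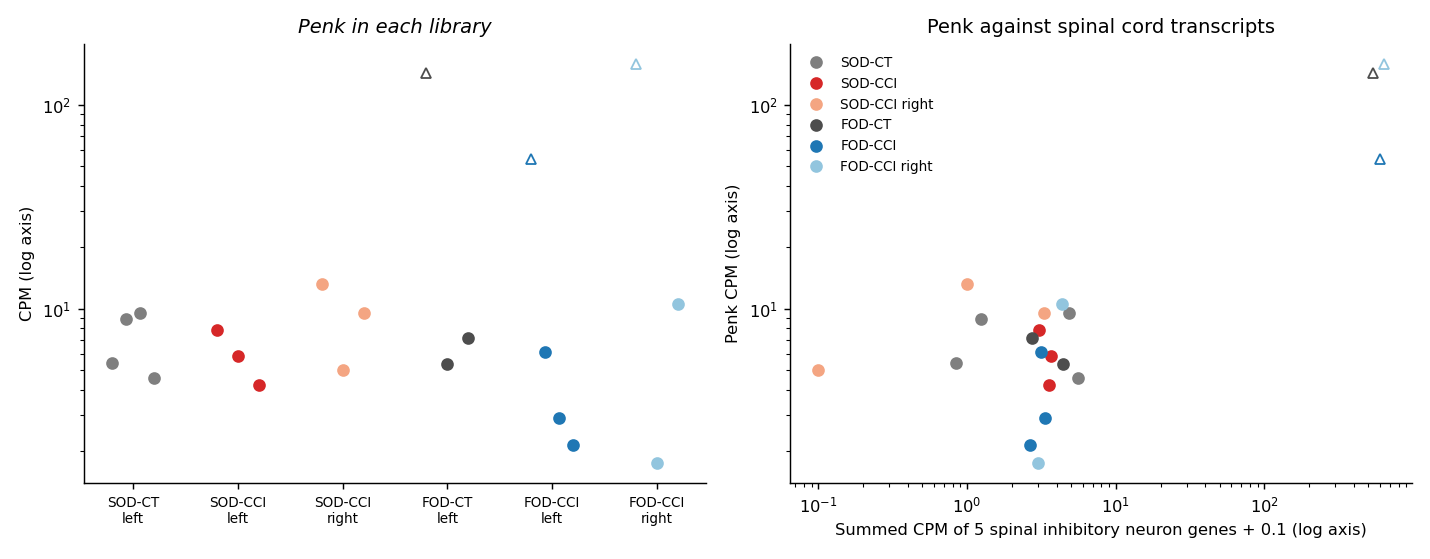
Penk CPM (log axis) by group on the left, and against the summed CPM of 5 spinal cord inhibitory interneuron markers (log axis) on the right, with a point for each of the 20 libraries and open triangles for the 3 that carry spinal cord transcripts. These 3 sit at 54.1 to 159 CPM of Penk, and the other 17 at 1.74 to 13.2.

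Oprm1, the receptor for morphine, was lower in FOD-CCI than in SOD-CCI. SOD-CCI measured 5.64, 7.13 and 5.14 CPM (158, 227 and 155 counts), and FOD-CCI 0.221, 0.717, 1.36 and 1.09 CPM (6, 21, 74 and 32 counts). All FOD-CCI libraries lay below all SOD-CCI libraries, a pattern that 4.42% of the genes with at least 1 count showed in this direction. The group means were 0.848 ± 0.494 CPM (SD, n = 4) and 5.97 ± 1.04 (SD, n = 3). The fitted difference was 6.99-fold (log2FC −2.81, SE 1.07, unadjusted p = 0.0173), which did not pass after adjustment over all genes (adjusted p = 0.725, edgeR). Of all genes fitted without the filter, 3.74% had an unadjusted p under 0.05 here, 1.12% in the lower direction. The log2FC stayed between −3.16 and −2.49 over the alternatives run, with adjusted p from 0.503 to 1, and was −2.50 without both left libraries that carry spinal cord transcripts. The nociceptor marker mean was 7.62 to 7.81 log2 CPM in SOD-CCI and 6.15 to 7.57 in FOD-CCI, so this mean too was lower in all FOD-CCI libraries. The summed CPM of the same 8 genes overlapped, at 2871 to 3260 in SOD-CCI and 1150 to 3130 in FOD-CCI. The part of these markers in the Oprm1 difference was not tested.

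The sham groups spread widely in Oprm1. SOD-CT measured 6.10, 4.24, 9.11 and 0.891 CPM. FOD-CT measured 1.55, 0 and 3.23 CPM. The lowest SOD-CT library lay inside the FOD-CT range. FOD-CT replicate 2, with 0 counts, could have held up to 0.0918 CPM at the 3 counts that a count of 0 allows. Its nociceptor marker mean of 7.62 log2 CPM was in the range of the other ganglia, but skeletal muscle genes took 1.87% of its counts. In SOD-CT replicate 4, the lowest of its group in Oprm1, they took 0.473%. The part of muscle in these values was not tested. FOD-CT was lower than SOD-CT by a log2FC of −1.72 (SE 1.09, adjusted p = 0.732, edgeR), and by −1.12 without FOD-CT replicate 2. With injury, Oprm1 differed by 0.18 (SE 1.03, adjusted p = 1.00) on SOD and by −0.91 (SE 1.04, adjusted p = 1.00) on FOD. The SOD-CT and SOD-CCI ranges overlapped, as did FOD-CT and FOD-CCI, and the difference between the 2 injury effects was −1.09 (SE 1.46). The contralateral ganglia gave 2.93, 2.75 and 6.90 CPM on SOD and 0, 4.25 and 2.65 on FOD, where the library at 0 was the one poor in nociceptor markers.

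Oprd1, the receptor that prefers enkephalins, gave the fewest counts, and no pair of left groups was separated. SOD-CT measured 0.863, 1.51, 0.857 and 0 CPM, and SOD-CCI 0.500, 1.48 and 1.36. FOD-CT measured 0.601, 1.74 and 3.82 CPM, and FOD-CCI 3.54, 0, 0.644 and 0.784. Both the highest FOD-CCI value and a value of 0 came from the same group, and every left group overlapped every other. The 2 left libraries at 0, SOD-CT replicate 4 and FOD-CCI replicate 2, had nociceptor marker means of 6.74 and 7.57 log2 CPM. In them 3 counts would have been 0.111 and 0.102 CPM, and skeletal muscle genes took 0.473% and 0.0155% of the counts. The log2FC was 0.41 (SE 1.44) for injury on SOD, −0.73 (SE 1.43) for injury on FOD, 0.16 (SE 1.44) for FOD-CCI versus SOD-CCI and 1.30 (SE 1.43) for FOD-CT versus SOD-CT. A change of 1 log2 unit is smaller than each of these standard errors and was not detectable for this gene.

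Oprk1, the dynorphin receptor, was lower in the injured SOD ganglia. SOD-CT measured 17.4, 11.8, 9.46 and 12.3 CPM, and SOD-CCI 7.68, 4.27 and 5.20. The highest SOD-CT value came from replicate 1, the library with the most skeletal muscle transcripts. The groups did not overlap, as for 7.15% of the filtered genes in this direction. The means were 12.8 ± 3.36 (SD, n = 4) and 5.72 ± 1.76 CPM (SD, n = 3). The fitted difference was 2.31-fold (log2FC −1.21, SE 0.40, unadjusted p = 0.00939, adjusted p = 0.271, edgeR), and 8.8% of all filtered genes were lower at an unadjusted p under 0.05. DESeq2 gave −1.24 (SE 0.41) with an adjusted p of 0.0701, past the threshold. Over the alternatives the log2FC ran from −1.48 to −0.73, the smallest with the neuronal marker mean as a covariate, and was −0.98 without SOD-CT replicate 1.

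On FOD the Oprk1 groups overlapped. FOD-CT measured 15.005, 7.77 and 9.17 CPM, and FOD-CCI 13.2, 6.32, 5.91 and 9.91. In both groups replicate 1, which carries spinal cord transcripts, was the highest. FOD-CCI replicate 1 was also the library whose nerve injury genes lay below every FOD-CT library, and the part of either trait was not tested. The log2FC with injury was −0.28 (SE 0.38, adjusted p = 1.00, edgeR), and the difference between the injury effects on the 2 diets was 0.93 (SE 0.55, unadjusted p = 0.115), so the effects were not shown to differ. FOD-CCI was above SOD-CCI by 0.63 (SE 0.39, adjusted p = 0.859), with the lowest 2 FOD-CCI libraries inside the SOD-CCI range. The sham groups differed by −0.29 (SE 0.39).

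Oprl1, the nociceptin receptor, was higher in SOD-CCI than in SOD-CT and lower in FOD-CCI than in SOD-CCI, without passing the test in either. SOD-CT measured 13.6, 37.8, 35.6 and 32.6 CPM, and SOD-CCI 39.6, 46.98 and 40.1. FOD-CT measured 41.2, 34.1 and 50.5, and FOD-CCI 34.2, 25.4, 29.1 and 31.9. All SOD-CCI libraries lay above all SOD-CT and all FOD-CCI libraries, a separation seen for 10.9% of filtered genes in the higher direction and 7.28% in the lower direction, whereas the 2 FOD groups met at 34.1 and 34.2 CPM. SOD-CT replicate 1, the library with the most skeletal muscle transcripts, was far below its group. The injury effect on SOD was 0.48 (SE 0.27, unadjusted p = 0.101, adjusted p = 0.438, edgeR), 0.24 without that library and 0.17 with the neuronal marker mean as a covariate. On FOD it was −0.49 (SE 0.27, unadjusted p = 0.0964, adjusted p = 1.00). The difference between these effects was −0.96 (SE 0.38, unadjusted p = 0.0254, adjusted p = 0.894), in a fit with all libraries where 0.684% of filtered genes were lower at an unadjusted p under 0.05. It was −0.74 without SOD-CT replicate 1 and −0.63 with the neuronal covariate. Between the sides of the same rats, the difference between the diets had the other sign, at 0.12 (SE 0.34, unadjusted p = 0.720, edgeR). FOD-CCI against SOD-CCI gave −0.48 (SE 0.27, adjusted p = 0.859), and −0.22 with the neuronal covariate. The neuronal marker mean itself was 8.22 to 8.626 log2 CPM in FOD-CCI and 8.627 to 8.75 in SOD-CCI, so the groups nearly met. The summed CPM of the same 10 genes overlapped, at 10611 to 18895 in FOD-CCI and 13869 to 17461 in SOD-CCI. FOD-CT against SOD-CT gave 0.48 (SE 0.27, adjusted p = 0.965), and 0.26 without SOD-CT replicate 1.

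The injured and contralateral ganglia of the same rats gave the second view of injury, with the rat as a block in a model of 12 libraries from 6 rats. edgeR called 0 of 5 opioid genes on SOD, beside 19 of 14549 filtered genes (0.131%), 0 on FOD, beside 2 genes (0.0137%), and 0 for the difference between diets, beside 0%. Without the filter, as Oprm1 and Oprd1 were tested, the shares called were 0.801%, 0.222% and 0.0109%. At an unadjusted p under 0.05 there were 1, 0 and 0 of the 5, beside 8.48%, 6.96% and 2.91% of filtered genes and 5.62%, 5.43% and 2.42% of genes without the filter. DESeq2 called 0 of the 5 in each, beside 3.24%, 1.81% and 0.412% of filtered genes. This comparison shares its injured libraries with the one against sham.

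Oprk1 was lower on the injured side in 3 of 3 SOD rats. The contralateral ganglia measured 13.5, 10.1 and 10.5 CPM, where the injured ones measured 7.68, 4.27 and 5.20, and the ranges did not overlap, as for 9.45% of filtered genes in this direction. The paired difference was 2.01-fold (log2FC −1.01, SE 0.34, unadjusted p = 0.0148, adjusted p = 0.425, edgeR), and 3.14% of filtered genes were lower at an unadjusted p under 0.05. On FOD the contralateral values were 17.1, 12.7 and 5.62 CPM, and the injured side was lower in 2 of 3 rats (−0.44, SE 0.34, unadjusted p = 0.217). The difference between the diets was 0.56 (SE 0.47). The FOD contralateral library at 17.1 CPM is the one poor in nociceptor markers.

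For the other 4 genes the differences between sides were smaller than or close to their standard errors. Oprl1 measured 47.6, 41.0 and 46.8 CPM in the SOD contralateral ganglia and 21.5, 30.9 and 34.3 in the FOD contralateral ganglia. Its injured side overlapped in both diets, with log2FC −0.09 (SE 0.24) on SOD and 0.04 (SE 0.24) on FOD. The uninjured SOD contralateral ganglia, like the SOD-CCI ones, lay above the 13.6 to 37.8 CPM of SOD-CT. These contralateral and sham values were not tested against each other. Oprm1 differed by 0.62 (SE 0.94) on SOD and by −0.62 (SE 1.14) on FOD. Oprd1 measured 1.99, 2.51 and 2.11 CPM in the SOD contralateral ganglia, above the 0.500 to 1.48 of the injured side in 3 of 3 rats and without overlap, as for 5.97% of genes with at least 1 count. Its fitted difference of −1.13 had a wide error (SE 1.67). On FOD Oprd1 was at 0, 0.455 and 1.45 CPM contralaterally, and the difference was −0.58 (SE 2.37). Penk measured 13.2, 5.02 and 9.48 CPM in the SOD contralateral ganglia and 159, 1.74 and 10.5 in the FOD ones, with side differences of −0.56 (SE 0.61) and −0.71 (SE 0.68).

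**Figure D4:**
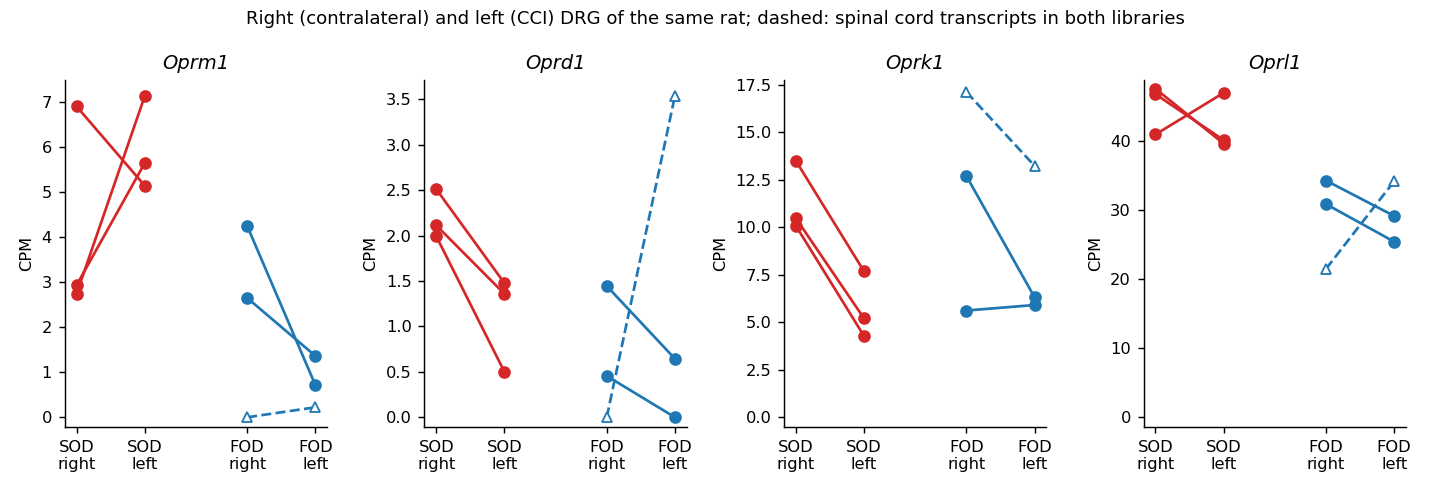
CPM (linear axes) of the 4 receptor genes in the contralateral (right) and the injured (left) DRG of the 6 CCI rats, with a line joining both sides of each rat, dashed for the rat whose libraries both carry spinal cord transcripts. Oprk1 is lower on the injured side in 3 of 3 SOD rats and 2 of 3 FOD rats, while the lines of Oprl1 and Oprm1 cross.

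A list of 30 other genes of the opioid system covered peptide precursors, processing and breakdown of the peptides, receptor regulators, G proteins and effector channels. In the left ganglia 28 of them passed the filter, and edgeR called 0 in each of the 8 comparisons (background as above). At an unadjusted p under 0.05 were 3 genes in SOD-CCI versus SOD-CT (10.7%, beside 13.8% of all filtered genes) and 1 in FOD-CCI versus FOD-CT (3.57%, beside 4.52%). There were 3 in FOD-CCI versus SOD-CCI (10.7%, beside 5.4%), 4 in FOD-CT versus SOD-CT (14.3%, beside 3.39%) and 1 in the interaction (3.57%, beside 5.01%). Between sides there were 5 on SOD (17.9%, beside 8.48%), 4 on FOD (14.3%, beside 6.96%) and 0 for the difference between diets (0%, beside 2.91%). The median log2FC of the list was 0.44 for injury on SOD, with 20 of 28 genes higher, and −0.17 on FOD, with 20 of 28 lower. The medians over all filtered genes were −0.01 and 0.01. Without SOD-CT replicate 1 the SOD median was 0.25, and 1 gene had an unadjusted p under 0.05. Without both left libraries that carry spinal cord transcripts the FOD median was −0.04, and 2 genes had an unadjusted p under 0.05.

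The peptide precursors other than Penk had lower median FPKM than Penk in the 17 libraries without spinal cord transcripts. The medians were 0.243 for Pdyn, 1.49 for Pnoc and 2.76 for Pomc, beside 4.20 for Penk and 1.98 for Oprk1. Pdyn, the dynorphin precursor, Pnoc, the nociceptin precursor, and Pomc, the beta-endorphin precursor, reached at most 6.54, 4.63 and 6.70 CPM in the 17 libraries without spinal cord transcripts. In the other 3 libraries Pnoc measured 9.40 to 32.4 CPM and Pdyn 0.442 to 17.6. Pdyn was higher in FOD-CT than in SOD-CT (log2FC 2.92, SE 1.34, unadjusted p = 0.0463), as were Kcnj9, a subunit of the inwardly rectifying potassium channel (2.96, SE 0.98), Gprasp1, which sorts internalised receptors (1.32, SE 0.57), and Grk2, a kinase that phosphorylates active receptors (0.69, SE 0.31, unadjusted p = 0.0408). Without both left libraries that carry spinal cord transcripts, the number of listed genes at an unadjusted p under 0.05 in that comparison was 0.

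The other listed genes with an unadjusted p under 0.05 in the left ganglia went in both directions. Gnao1, the inhibitory G protein alpha subunit abundant in neurons, was higher in SOD-CCI than in SOD-CT (log2FC 0.68, SE 0.31, unadjusted p = 0.0433) and lower in FOD-CCI than in SOD-CCI (−0.74, SE 0.31, unadjusted p = 0.0290). Its injury effect differed between the diets by −0.996 (SE 0.432, unadjusted p = 0.0373). Between the sides of the same rats, Gnao1 differed by only 0.15 (SE 0.26) on SOD and 0.07 (SE 0.26) on FOD. The difference between the diets there was −0.08 (SE 0.36). Cacna1b, the N-type calcium channel that opioid receptors inhibit, was higher in SOD-CCI than in SOD-CT by 0.97 (SE 0.42), and Dpp3, an enkephalin-degrading peptidase, by 0.70 (SE 0.29). Without SOD-CT replicate 1, the library with the most skeletal muscle transcripts, only 1 listed gene had an unadjusted p under 0.05 in SOD-CCI versus SOD-CT. Scg5, a chaperone of the prohormone convertase that Pcsk2 encodes, had the higher level in FOD-CCI when compared with SOD-CCI (0.73, SE 0.26, unadjusted p = 0.0129). Grk3, a receptor kinase, was lower in the same comparison (−1.05, SE 0.39), and Kcnj3, a potassium channel subunit, was lower in FOD-CCI than in FOD-CT (−0.85, SE 0.34). None of these passed after adjustment over all genes.

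Arrb1, the beta-arrestin that uncouples and internalises the receptors, had the smallest p of the list between sides on SOD. It measured 43.04, 55.9 and 48.9 CPM in the injured ganglia and 15.8, 20.1 and 28.3 in the contralateral ones, without overlap, as for 11.1% of filtered genes in the higher direction. The paired log2FC was 1.25 (SE 0.32, adjusted p = 0.270, edgeR), and DESeq2 called it (adjusted p = 0.0229). Sham ganglia on SOD measured 0, 27.6, 31.9 and 8.73 CPM, with the 0 in the library with the most muscle transcripts. Against these the log2FC was 1.52 (SE 0.92, adjusted p = 0.463, edgeR). The other 4 listed genes at an unadjusted p under 0.05 between sides on SOD were Grk5, a receptor kinase, higher by 1.0 (SE 0.38), Cacna1b, higher by 0.55 (SE 0.23), Gnai1, an inhibitory G protein alpha subunit (−0.62, SE 0.22), and Pcsk2 (−0.74, SE 0.29). On FOD, Ackr3, a scavenger receptor for opioid peptides, was lower on the injured side (−0.97, SE 0.29, unadjusted p = 0.0087), as were Kcnj6, a potassium channel subunit (−1.57, SE 0.53), and Mme, the enkephalin-degrading neprilysin (−0.83, SE 0.35), while Cacna1b was higher (0.60, SE 0.23). None of these was called by edgeR. The FOD rat of replicate 1 had spinal cord transcripts in the libraries of both sides. Kcnj6 measured 14.9 to 24.7 CPM in the 3 libraries with such transcripts and 0 to 12.7 in the other 17. The ranges of Ackr3, Mme and Cacna1b overlapped between these sets. The part of the spinal cord transcripts in the side differences was not tested.

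**Figure D5:**
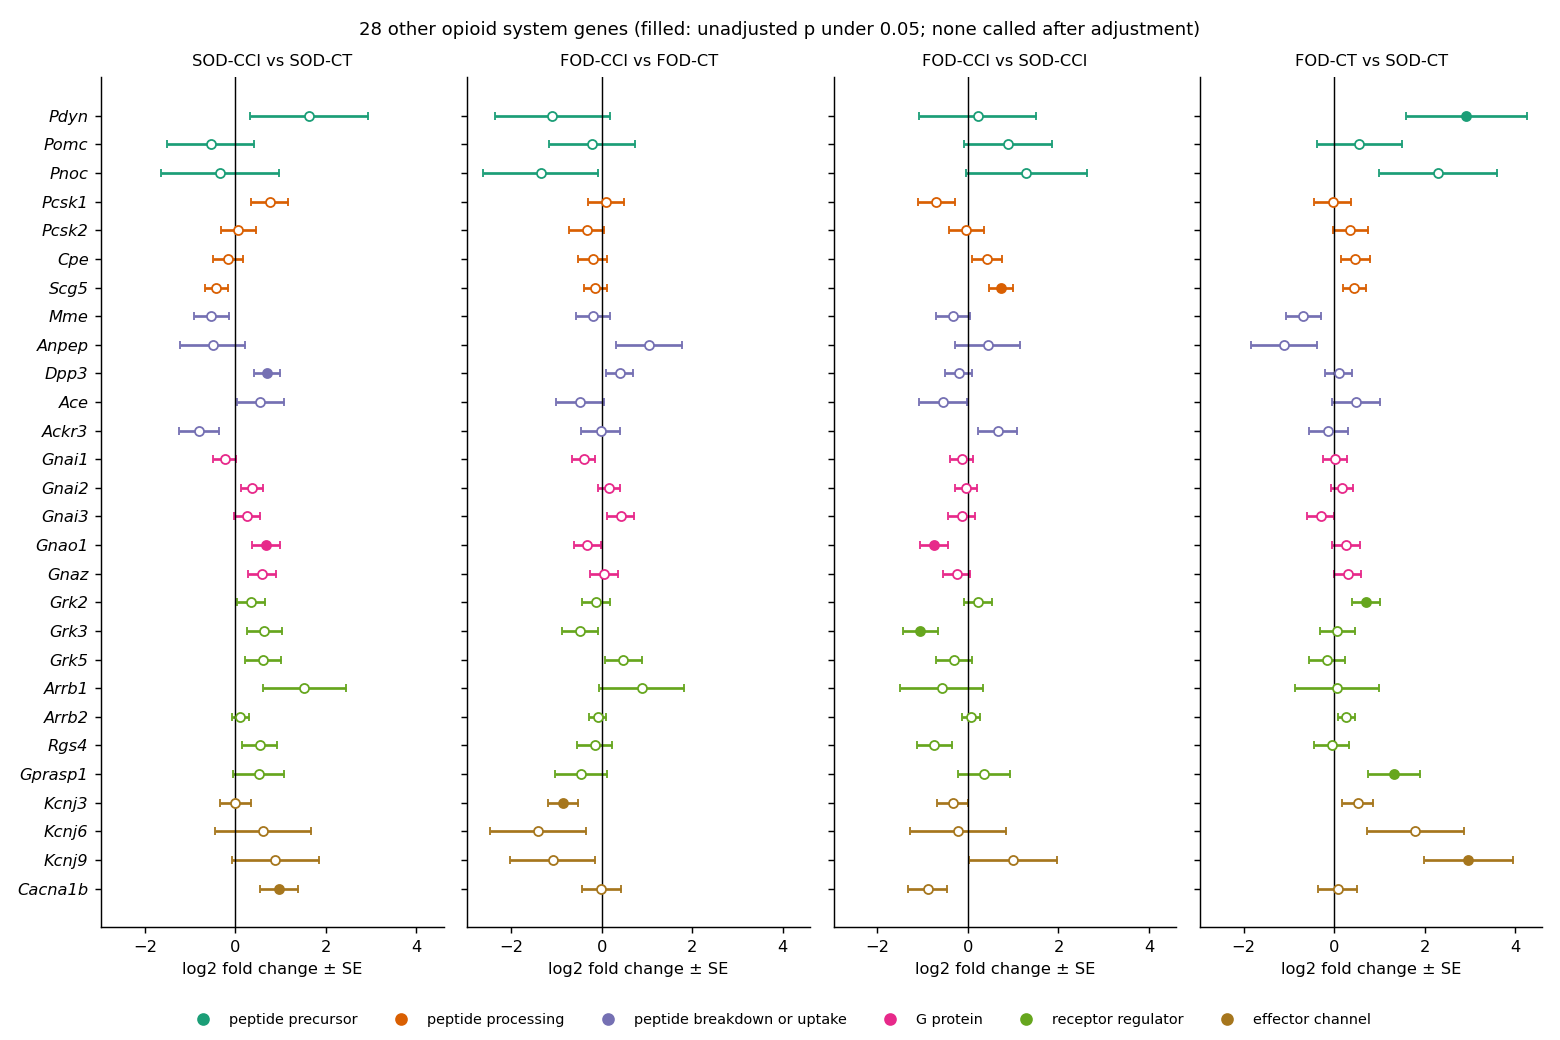
Log2 fold changes (points, with bars for standard errors) of the 28 tested opioid system genes, coloured by role, in the 4 comparisons of left ganglia, from the edgeR fit, with filled points for an unadjusted p under 0.05. In SOD-CCI versus SOD-CT 20 of 28 genes lie above 0, and in FOD-CCI versus FOD-CT 20 of 28 lie below it, with none past an adjusted p of 0.1.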

How the data were processed

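Per the submitters' notes, the authors used fastp for trimming, HISAT2 for alignment and featureCounts 1.5.0-p3 for counting, and deposited raw counts per gene and FPKM per library. The genome build and the strand setting are not given in the sources used here, so overlapping and antisense genes cannot be told apart. FPKM served only to compare levels between genes.

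Counts of 14 left libraries (4 groups) were fitted with edgeR 4.0.16 (TMM scaling, quasi-likelihood test), and those of 12 libraries of 6 rats with the rat as a block. CPM used TMM-scaled totals of counts. The filter kept genes with 10 counts or more in 90% of libraries, and members that failed this were tested without the filter. Calls were made at an adjusted p (Benjamini-Hochberg) up to 0.1 with a 1.2-fold difference or more. The SE is the size of the log2FC divided by the square root of F. DESeq2 1.42.0 was an alternative, as were other scaling, no filter, filterByExpr (chosen after seeing the data), a length correction, a neuronal covariate, the replicate number as a block and leaving out each library. R 4.3.3 was used. The fits were first run on simulated counts with a dispersion fixed at 0.05, not estimated from these libraries. There, 72% of changes of 1 log2 unit were called in FOD-CCI versus SOD-CCI and 64% between sides on SOD. Of changes of 2 units, 100% were called in both. This shows that the code works, and not what the fits could detect at the spread of these data.

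The members, gene lists and tests were chosen with earlier results of these data known. Named are the 5 members, genes of the opioid list with an unadjusted p under 0.05, its peptide precursors, and genes most like a member. Libraries of 1 group are separate rats. Left and right ganglia of a rat deviated together (correlations 0.113 to 0.430, all 6 pairs), as did same-numbered FOD-CT and FOD-CCI libraries (0.191 to 0.429), for which the labels give no reason. These are deviations from group means, and replicate 1 of both FOD-CT and FOD-CCI carried spinal cord transcripts. The part of these transcripts in the correlations was not tested. The other groups' numbers did not pair their libraries.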

Additional observations from a re-analysis of the deposited data

Results flagged for a closer look

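In the 4 FOD-CCI libraries, Penk in replicate 1 (54.1 CPM) was far from the others, which measured 6.12, 2.89 and 2.15 CPM. It was the only value of 10 group tests (Dixon's test of the highest or lowest of 4 libraries) past the 95% critical value, and chance passes about 1 in 20 such groups. Summed spinal cord interneuron markers were 534 to 638 CPM in this library and the other 2 with spinal cord transcripts, and at most 5.50 CPM in the other 17, and their part in the Penk value was not tested.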

How the results depend on the processing

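The number of opioid genes called in SOD-CCI versus SOD-CT was 1 with DESeq2 (Oprk1) and 0 otherwise. For the opioid system list between sides on SOD it was 1 with DESeq2 and 1 without the filter (Arrb1 in both), and 0 to 1 when each library was left out. Every other count of calls was 0 to 0 over the libraries left out. A single-gene log2FC counted as the same if it kept direction and side of the threshold. Ratios of group mean levels on total counts or FPKM were included, and counted as the same within the SD of log2 CPM in the groups. Of all these values outside the leave-one-out runs, 298 were the same, 1 passed the threshold (Oprk1 with DESeq2) and 8 changed sign. For injury on SOD these were Oprm1 at −0.0112 with a length correction and −0.0571 with the neuronal covariate, and Penk at 0.33 with that covariate. With the replicate number as a block, Oprd1 was 0.14 for injury on FOD, and Oprd1 between sides on FOD was 1.17 with no replicate block. Without both left libraries that carry spinal cord transcripts, FOD-CCI versus SOD-CCI was −1.22 for Oprd1 and −0.69 for Penk, and FOD-CT versus SOD-CT was −0.19 for Penk. The cause was not tested. DESeq2 gave no adjusted p for Penk in the 5 left comparisons, nor for Oprk1 and Oprl1 in the interaction, and these are not counted. The block changed no call of an opioid gene.

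Leaving out each library changed 20 values in sign. For injury on SOD, Oprm1 ran from −0.13 to 0.60. For injury on FOD, Oprm1 ran from −1.50 to 0.13, Oprd1 from −2.11 to 0.0805, Oprk1 from −0.54 to 0.0546 and Penk from −3.83 to 1.37. In FOD-CCI versus SOD-CCI, Oprd1 ran from −1.22 to 0.53 and Penk from −0.69 to 1.82. Penk ran from −0.19 to 3.40 in FOD-CT versus SOD-CT and from −3.55 to 1.64 in the interaction. Between sides on FOD, Oprm1 ran from −1.70 to 0.50, Oprd1 from −2.70 to 2.61, Oprl1 from −0.26 to 0.21 and Penk from −1.71 to 0.0124. The difference between diets in the side effect ran from −1.57 to 3.71 for Oprd1, −0.18 to 0.29 for Oprl1 and −1.15 to 0.57 for Penk. Oprm1 had 0 counts in 2 libraries and Oprd1 in 3, where the 3 counts that a count of 0 allows came to 0.0918 to 0.126 CPM.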

Other observations

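The genes whose log2 CPM followed each filtered opioid gene most closely were listed as a description, by Pearson's r over libraries that share scaling, diet and injury. For Oprl1 the closest over 20 libraries were Ttll1 (r = 0.90), Gpr26 (0.89) and Gnao1 (0.89), the last a member of the opioid system list. Over the 17 libraries without spinal cord transcripts, Rnf125 (0.94) and Kctd3 (0.93) came first, and Ttll1, Gpr26 and Gnao1 were not among the closest 5. For Oprk1 the closest were Chic1 (0.83) and Tceal1 (0.81) over 20 libraries, and Morc4 (0.87) and Chic1 (0.86) over the 17. For Penk they were Nrsn2 (0.95) and Gpr37 (0.93) over 20 libraries, a ranking that rests on the 3 libraries with spinal cord transcripts, and Cst12 (0.87) over the other 17.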
